A study of Mus musculus with 9 samples.

Results

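The nuclear-encoded subunits of the respiratory chain and of ATP synthase were examined in gastrocnemius, a calf muscle, of newborn mice. Members were the protein-coding genes whose symbols mark a subunit of complex I (Ndufa, Ndufb, Ndufc, Ndufs and Ndufv forms), complex II (Sdha to Sdhd), complex III (Cyc1 and the Uqcr genes), complex IV (Cox4 to Cox8 forms) or complex V (the Atp5 genes). They numbered 85 of the 55471 genes in the deposited table: 35 of complex I, 4 of complex II, 9 of complex III, 19 of complex IV and 18 of complex V. Ndufa4, a component of complex IV despite its symbol, was placed there. Atp5s, listed with complex V by its symbol, encodes coupling factor B, which is not counted among the structural subunits. Atp5o was represented by 2 overlapping gene identifiers, whose reads could not be told apart with certainty. A further 8 processed pseudogenes with matching symbols were left out.

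RNA was sequenced from 5 Shank3Δ11(-/-) mice (KO1 to KO5) and 4 Shank3(+/+) mice (WT1 to WT4) at postnatal day 0 to 1, with 1 library per mouse. The labels give C57BL/6 as the background of both groups, and per the study's methods the knock-outs came from matings of heterozygous C57BL/6JRj mice. Shank3Δ11(-/-) mice lack exon 11 of Shank3, a scaffold protein of synapses and striated muscle, in every cell of the body. The comparison asked which muscle transcripts differ between the genotypes, and the study left KO2 and KO4 out for low read numbers, so the main comparison set the mice WT1 to WT4 beside KO1, KO3 and KO5, and it was repeated with all 9 mice. Counts per mouse ranged from 26444372 in KO5 to 40471957 in KO4. The deposited counts thus do not show low numbers for KO4, and KO2, at 28211941, was above KO5, which the study kept.

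The respiratory chain passes electrons from NADH (complex I) and succinate (complex II) through ubiquinone, complex III, cytochrome c and complex IV to oxygen, and the proton gradient built on the way drives ATP synthase, complex V. Most subunits are encoded in the nucleus and imported, and a small set is encoded by mitochondrial DNA. In heart and skeletal muscle several ubiquitous complex IV subunits have muscle counterparts (Cox6a2 for Cox6a1, Cox7a1 for Cox7a2, Cox8b for Cox8a), whose share grows around and after birth, while Cox4i2 is an isoform best known from lung and Cox6b2, Cox7b2 and Cox8c are best known from testis.

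As background to the isoform pairs, promoters of 5 complex IV genes are shown, because these windows carry the letter patterns counted below or, in Cox7a1 and Cox7a2, carry none of them. Each window runs from 250 bases before to 50 bases after the annotated start (RefSeq, build GRCm38.p6) and is written 5′ to 3′ on the strand of the gene. Capitals mark matches to the NRF1 pattern GCATGCGC, the ETS pattern CCGGAAG and the E-box CAGCTG on either strand. The ubiquitous Cox6a1 (chr5:115348909-115349208, minus strand) held overlapping NRF1 matches on both strands, whose first bases lay 162 and 160 bases before the start, and an ETS match 16 bases before it.

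Cox6a1: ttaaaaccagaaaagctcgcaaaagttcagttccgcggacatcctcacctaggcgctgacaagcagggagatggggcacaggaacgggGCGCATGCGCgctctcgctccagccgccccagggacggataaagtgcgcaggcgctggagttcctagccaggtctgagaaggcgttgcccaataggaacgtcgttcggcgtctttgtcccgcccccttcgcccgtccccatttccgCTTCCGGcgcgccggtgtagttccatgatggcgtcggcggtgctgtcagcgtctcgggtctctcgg

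The other 4 windows came from the Cox7a pair, Cox7a1 (chr7:30183921-30184220, plus strand) and Cox7a2 (chr9:79759804-79760103, minus strand), and the Cox8 pair, Cox8a (chr19:7217567-7217866, minus strand) and Cox8b (chr7:140900397-140900696, minus strand). Cox8a held an ETS match 5 bases before the start and another after it, and Cox8b held an E-box 19 bases before the start and another after it. The ubiquitous genes Cox6a1, Cox7a2 and Cox8a had 32, 20 and 19 CG dinucleotides in these windows, against 7 in Cox7a1 and 2 in Cox8b.

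Cox7a1: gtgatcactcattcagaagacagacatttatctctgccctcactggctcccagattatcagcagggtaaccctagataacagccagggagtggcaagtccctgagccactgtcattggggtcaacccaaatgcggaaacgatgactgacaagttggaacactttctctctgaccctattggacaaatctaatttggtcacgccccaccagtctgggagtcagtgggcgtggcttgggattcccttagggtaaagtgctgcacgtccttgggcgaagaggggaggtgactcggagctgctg

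Cox7a2: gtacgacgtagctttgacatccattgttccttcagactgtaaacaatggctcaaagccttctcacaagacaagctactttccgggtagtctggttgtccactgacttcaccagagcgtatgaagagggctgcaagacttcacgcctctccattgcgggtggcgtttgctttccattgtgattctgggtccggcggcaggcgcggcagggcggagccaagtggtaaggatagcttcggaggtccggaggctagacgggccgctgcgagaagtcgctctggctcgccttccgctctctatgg

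Cox8a: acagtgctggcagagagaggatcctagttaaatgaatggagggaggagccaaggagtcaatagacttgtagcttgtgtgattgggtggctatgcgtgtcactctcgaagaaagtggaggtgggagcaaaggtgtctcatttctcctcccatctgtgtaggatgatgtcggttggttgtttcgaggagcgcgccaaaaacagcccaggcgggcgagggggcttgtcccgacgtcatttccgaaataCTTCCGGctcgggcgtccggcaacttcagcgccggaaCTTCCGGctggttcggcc

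Cox8b: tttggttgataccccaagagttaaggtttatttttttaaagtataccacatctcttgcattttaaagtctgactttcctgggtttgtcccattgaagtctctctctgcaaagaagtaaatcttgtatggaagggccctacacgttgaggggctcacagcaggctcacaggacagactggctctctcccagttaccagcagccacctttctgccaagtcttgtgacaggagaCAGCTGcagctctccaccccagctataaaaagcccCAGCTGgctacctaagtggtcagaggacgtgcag

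Promoters were found for 68 of the 84 symbols of the members, in 73 windows, and a gene counted once if any of its windows held the pattern. Symbols with no entry included Atp5a1, Atp5mpl, Cox4i1, Cox4i2, Cox6a2, Cox6c, Cox8c, Cyc1, Ndufa2, Ndufb9, Ndufs1, Sdhc, Uqcrb, Uqcrc2 and Uqcrq. The NRF1 pattern, named for a regulator of mitochondrial genes, was in 10 of the 68 (14.7%) and in 3.93% of 17491 protein-coding genes with such a window. The members that held it were Atp5g2, Atp5k, Atp5l, Cox6a1, Ndufa11, Ndufa6, Ndufa8, Sdhb, Uqcr11 and Uqcrc1. The ETS pattern, the core letters of the GABP (NRF2) family site, was in 16 members (23.5%) against 12.9% of all, and the YY1 pattern AAGATGGCG in 7 (10.3%) against 2.14%. The Mef2 pattern TATTTATA was in 0 of the 68 genes against 1.90% of all, and the E-box in 6 (8.82%) against 17.4%. Both strands were searched and no pattern was required to be free of another; a match is a run of letters and not a measured binding site.

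Levels are given as CPM (library-scaled read counts, TMM-adjusted) per kilobase of the union of annotated exons, so that genes of unlike length can be set side by side. The members took 1.4% to 1.71% of all counts, the lowest in KO2 and the highest in WT4. Of their summed level per length, complex V held 30.0% ± 1.18 (SD, n = 9 mice), complex I 26.6% ± 0.684, complex IV 25.2% ± 1.10, complex III 13.6% ± 0.166 and complex II 4.54% ± 0.384. The share of complex V was 30.1% ± 0.968 in KO1, KO3 and KO5 and 30.0% ± 1.17 in Shank3(+/+), and that of complex IV was 24.98% ± 0.619 and 25.3% ± 1.52. The ranges of the genotypes overlapped for both complexes.

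**Figure D1:**
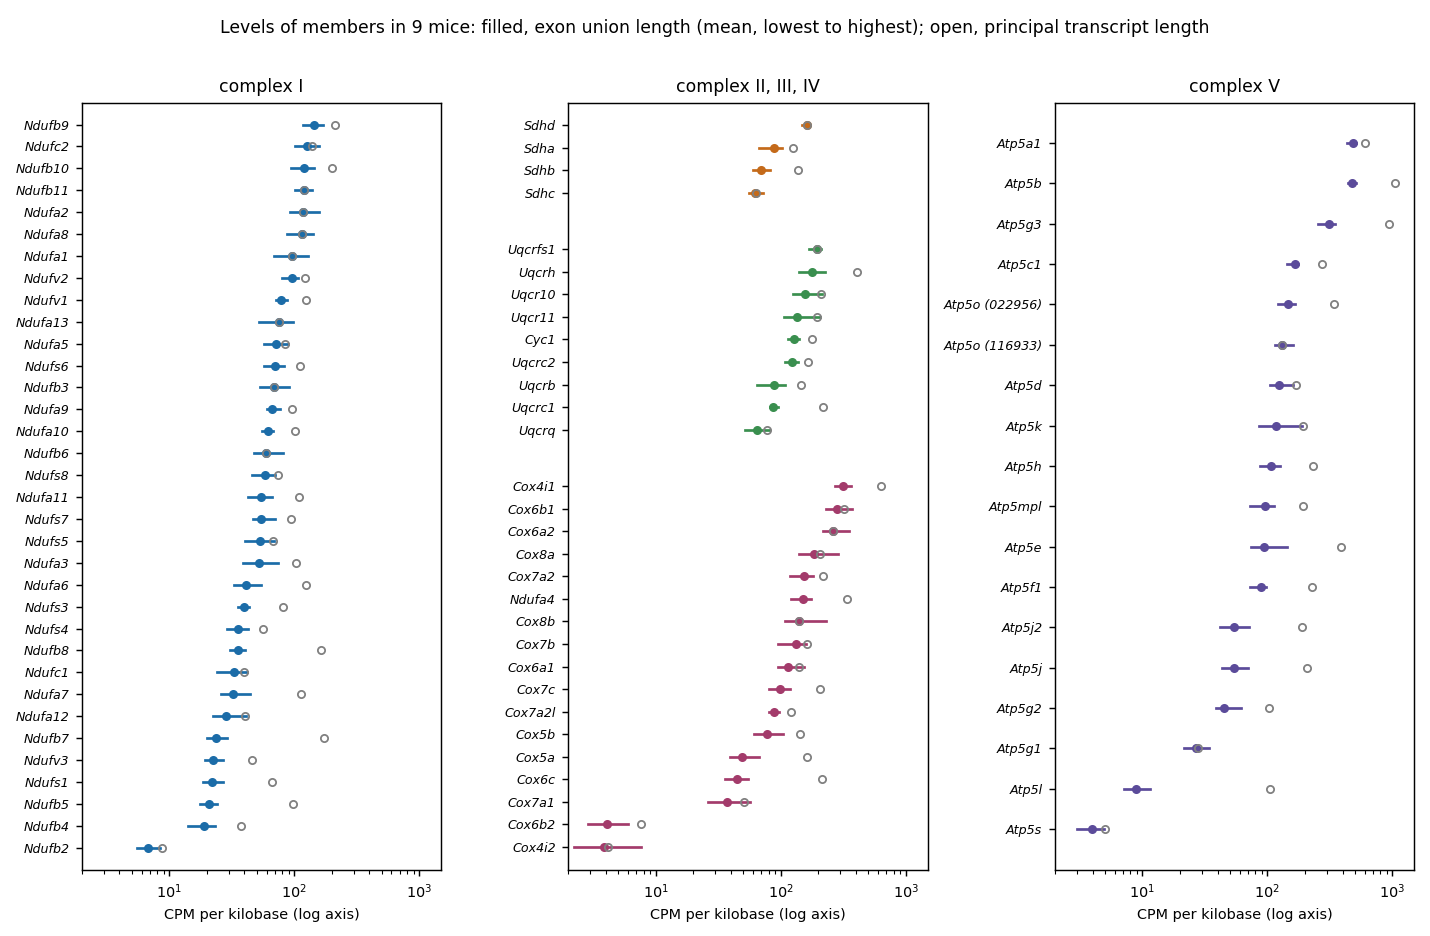
Level of the members shown in CPM per kilobase on a log axis, grouped by complex; filled points are means over 9 mice with lines from the lowest to the highest mouse (exon union length), and open points use the length of the principal transcript. Atp5a1 and Atp5b lie highest at 480 and 474, and Cox4i2, Atp5s and Cox6b2 lie lowest at about 4.

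In complex V the catalytic alpha and beta subunits led. Atp5a1 was at 480 ± 24.8 and Atp5b at 474 ± 26.8 CPM per kilobase (SD, n = 9), which did not differ beyond their spread, and Atp5g3, a gene for the membrane ring subunit c, followed at 310. The other ring subunit genes were lower, Atp5g2 at 44.8 and Atp5g1 at 27.0. In complex IV, Cox4i1, the ubiquitous form of subunit 4, was highest at 314 ± 31.6, next to Cox6b1 at 282 ± 44.7 and the muscle form Cox6a2 at 264 ± 43.8. The Rieske iron-sulfur protein Uqcrfs1 was highest in complex III at 195 ± 14.0, the membrane anchor Sdhd in complex II at 161 ± 9.12 and the accessory subunit Ndufb9 in complex I at 144 ± 17.7. The lowest were Ndufb2 at 6.81 in complex I, Sdhc, the other membrane anchor, at 62.3 in complex II, Uqcrq at 64.0 in complex III and Atp5s at 3.92 in complex V. Median levels of the complexes ran from 58.1 in complex I and 79.1 in complex II to 98.5 in complex IV, 102 in complex V and 126 in complex III.

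This order depended in places on which length was used, since the exon union of some genes is several times as long as the principal transcript. With the principal transcript, Atp5b was at 1048, Atp5g3 at 936 and Atp5a1 at 609, and Ndufb7 moved from rank 30 to rank 4 in complex I. Uqcrfs1 moved from rank 1 to rank 4 in complex III, where Uqcrh led at 404. Ndufb9, Sdhd and Cox4i1 led complexes I, II and IV on both lengths. Exons of Ndufb2, Ndufb8, Ndufb9, Atp5g2 and Atp5o overlap other annotated genes on their own strand, so their levels are uncertain. Exons of 23 further members overlap genes of the opposite strand alone, among them Cox6a2, Cox4i1 and Atp5a1, and since the strandedness of the counting is not known these levels are uncertain too.

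The muscle and ubiquitous isoforms of complex IV did not stand in the same order in every pair. Cox6a2 exceeded Cox6a1 in all 9 mice, with a mean log2 ratio of 1.21 ± 0.10 (SD, n = 9; per length, pseudocount 0.5), 2.32-fold and from 2.08-fold in KO3 to 2.55-fold in KO5. Cox7a1 was below Cox7a2 in all 9 mice, by 4.14-fold on average and from 3.07-fold to 5.47-fold. Cox8b was below Cox8a in all 9 mice too, by 1.31-fold on average, and in KO5 the pair was nearly level at 1.05-fold. Cox4i2 was 76.4-fold below Cox4i1, and from 42.8-fold to 108-fold in single mice. On average it was 145-fold below with the length of the principal transcript. At the mRNA level the muscle form of subunit 6a and the ubiquitous form of subunit 7a were in excess, and the forms of subunit 8 lay closest together.

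**Figure D2:**
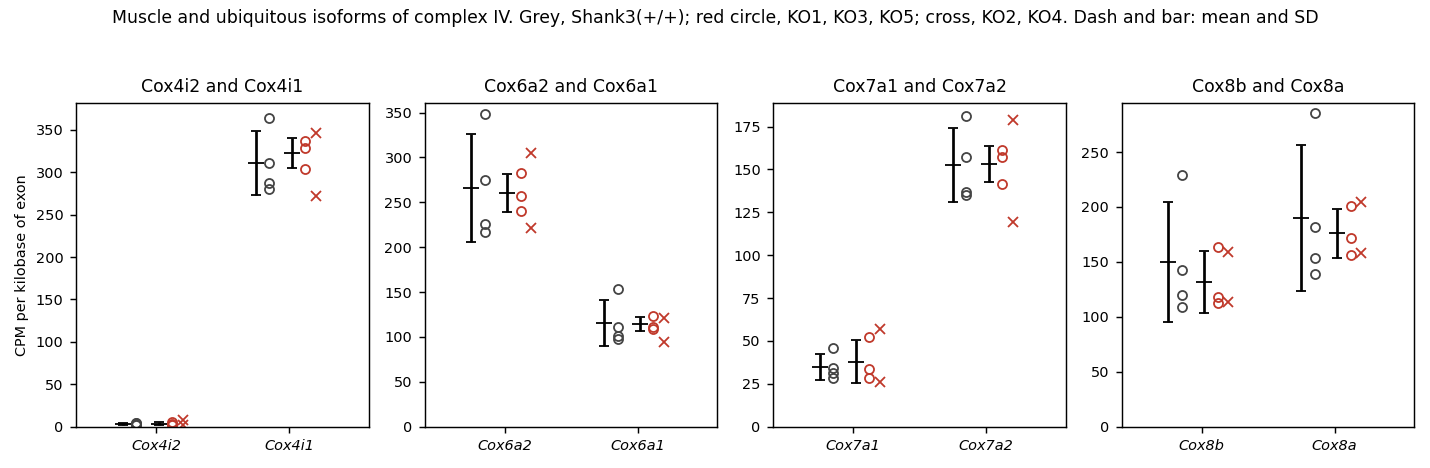
CPM per kilobase of exon of the paired complex IV isoforms in each mouse, with grey circles for Shank3(+/+), red circles for KO1, KO3 and KO5, crosses for KO2 and KO4, and mean and SD for the 4 and 3 mice. Cox6a2 lies above Cox6a1 and Cox7a1 lies below Cox7a2 in all 9 mice, and the genotypes overlap in each panel.

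Between the genotypes the ratios overlapped in each pair, with 3 and with all 5 Shank3Δ11(-/-) mice. The log2 ratio of Cox6a2 to Cox6a1 was 1.14, 1.06 and 1.35 in KO1, KO3 and KO5 and 1.16, 1.31, 1.15 and 1.18 in WT1 to WT4. The Shank3Δ11(-/-) mice gave both the lowest and the highest of these values. The ratio of Cox7a1 to Cox7a2 was -2.07, -2.44 and -1.62 against -2.11, -2.45, -1.95 and -1.97. The ratio of Cox8b to Cox8a was -0.47, -0.76 and -0.06 against -0.22, -0.35, -0.49 and -0.32. In both, KO5 was highest of the 7 mice. Differences of the means between genotypes were -0.02 for the Cox6a pair, 0.08 for the Cox7a pair, -0.09 for the Cox8 pair and 0.03 for the Cox4 pair, each smaller than the SD of the 4 Shank3(+/+) mice. These are described without a test.

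Fibre type markers differed in KO5. The summed level of 5 slow or oxidative fibre genes was 1615 CPM there, against 2086 and 2594 in KO1 and KO3 and 2329 to 3101 in Shank3(+/+). All 5 of these genes had lower mean levels in the 3 Shank3Δ11(-/-) mice, and edgeR's quasi-likelihood test gave 2 of them, Tnnt1 and Tnnc1, an unadjusted p below 0.05, as it did for 2.08% of all genes tested. Myl2 went the other way in KO5, where at 210 CPM it was the highest of the 7 mice. The 5 fast fibre genes summed to 5656 CPM in KO5, the highest of the 9 mice, against 4434 to 5206 in the others, with 2 of them higher and 3 lower and 1, Actn3, at an unadjusted edgeR p below 0.05. The part of fibre type in the isoform ratios was not tested. In bulk RNA, fewer fibres of a type and less RNA per fibre cannot be told apart.

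The other isoforms were scarce or absent. Cox6b2 was at 4.04 CPM per kilobase, far below Cox6b1, and Cox4i2 at 3.88. Cox7b2 and Cox8c had 0 counts in all 9 mice, which allows up to 0.0105 CPM over the 9 libraries (3 counts, counting error only). These 2 genes could not be tested, which left 83 members with a fit.

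No member was called between the genotypes. A call needed p below 0.05 with FDR below 25% in edgeR's quasi-likelihood test, and 0 of 83 members passed, with 0 having an unadjusted p below 0.05. DESeq2 and limma-voom also gave 0 members on both counts. Of all 21809 genes tested, 0 were called (0%), and 453 (2.08%) had an unadjusted p below 0.05. DESeq2 called 6 genes of the whole table, none of them members, and limma-voom called 0. With all 9 mice the members gave 0 and 0 again, against 0 of 21735 genes called (0%) and 442 (2.03%) with an unadjusted p below 0.05. The smallest p of a member was 0.195, for Cox6b2, and its edgeR adjusted p was 1.00.

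The sizes were small and lay on both sides of 0. Of the 83 members, 43 were higher and 40 lower in Shank3Δ11(-/-), and the median log2 fold change was 0.0032, beside -0.0081 over all genes tested, of which 47.8% were higher. With 9 mice 39 were higher and 44 lower. The median absolute log2 fold change was 0.045 among members and 0.10 over all genes, with median standard errors of 0.14 and 0.18. For 77 of the 83 members the 95% confidence interval lay within a 1.5-fold change in either direction. The 6 exceptions were Cox4i2, Cox6b2, Cox7a1, Cox8a, Cox8b and Atp5k. A p above the threshold does not show that a member was equal in both genotypes. The p-values set the difference between the genotypes against the spread between these mice.

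**Figure D3:**
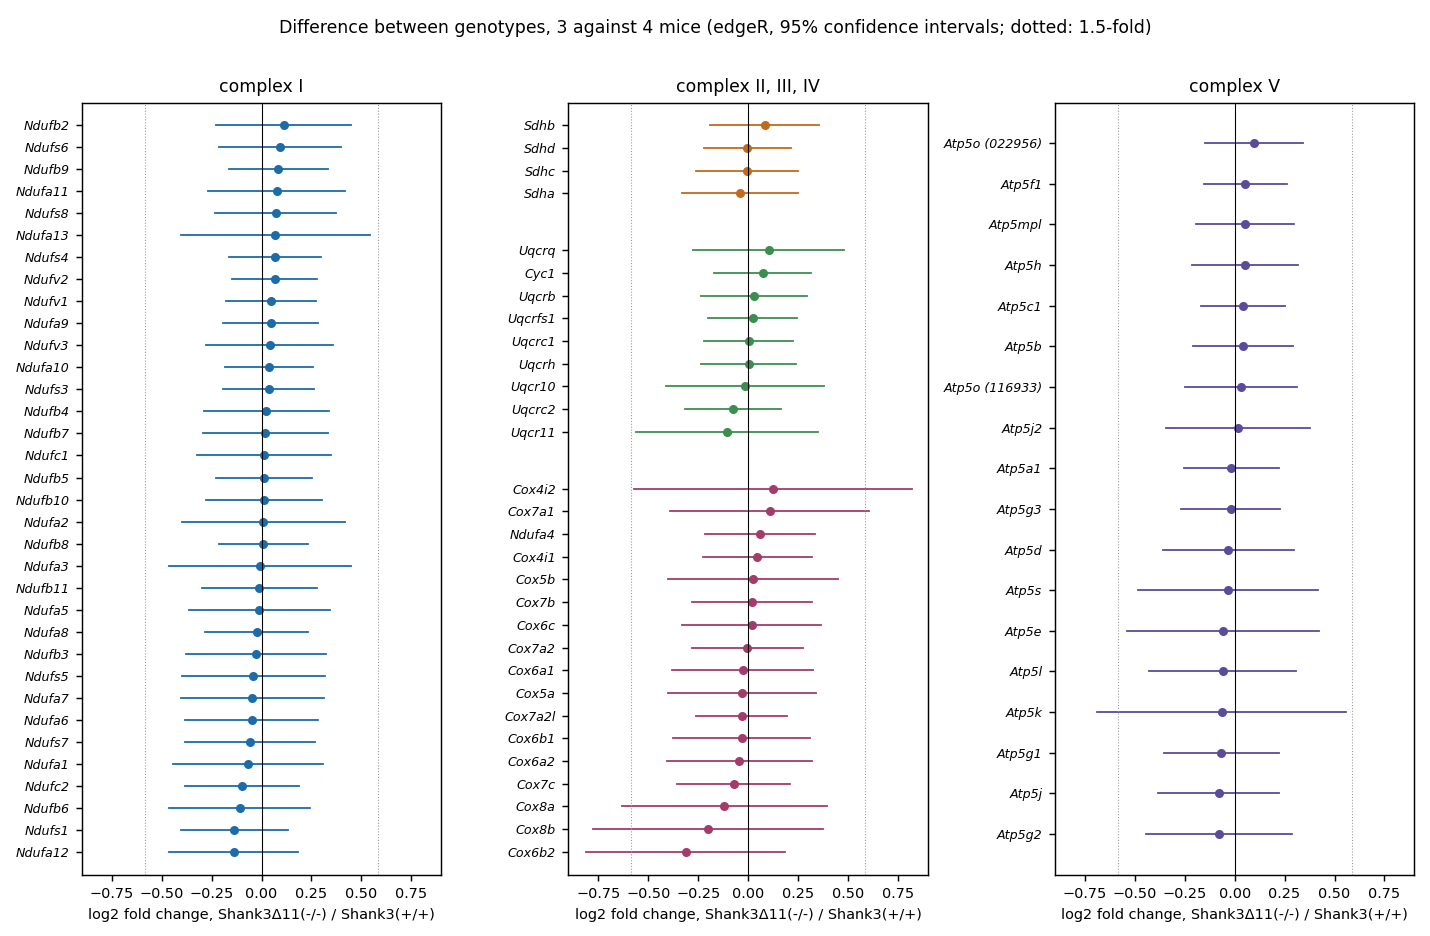
log2 fold change of the members shown, Shank3Δ11(-/-) (KO1, KO3, KO5) over Shank3(+/+) (WT1 to WT4), with 95% confidence intervals from edgeR; dotted lines mark a 1.5-fold change. The intervals of the members shown include 0, and 6 of them cross a dotted line.

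Complex I, the NADH dehydrogenase, had 21 of 35 members higher and 14 lower, with log2 fold changes from -0.14 to 0.11 around a median of 0.01.

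Core subunits of complex I, most of which carry its iron-sulfur clusters or flavin, had small differences. Ndufs1, the largest, was lower with a log2 fold change of -0.14 (95% interval -0.40 to 0.13), from 160 to 195 CPM in the 3 mice and from 172 to 218 in Shank3(+/+). Ndufv1 and Ndufv2, which form the NADH-binding arm, were at 0.05 and 0.07. Ndufs3, Ndufs7 and Ndufs8, which link that arm to the membrane, were at 0.04, -0.06 and 0.07. Of the accessory subunits, Ndufa12 lay at the low end with -0.14 (95% interval -0.46 to 0.18), at 37.6, 41.4 and 45.4 CPM against 38.4, 54.5, 39.2 and 49.5, and Ndufb2 was at 0.11. The groups overlapped for all of these.

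Complex II, succinate dehydrogenase, had 1 of its 4 members higher. The flavoprotein Sdha was at 417, 343 and 345 CPM in KO1, KO3 and KO5 and at 390, 307, 418 and 390 in WT1 to WT4, with a log2 fold change of -0.04 (95% interval -0.33 to 0.25). The lowest of the 9 mice was KO4 at 277. The iron-sulfur subunit Sdhb was at 0.08, and the membrane anchors Sdhc and Sdhd had log2 fold changes of -0.0049 and -0.0042.

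Complex III, cytochrome bc1, had 6 of 9 members higher, from -0.10 for Uqcr11 to 0.10 for Uqcrq, both small subunits. Cyc1, the cytochrome c1 that hands electrons to cytochrome c, was at 265, 292 and 284 CPM against 248, 253, 259 and 301, a log2 fold change of 0.07 (95% interval -0.17 to 0.31). Shank3(+/+) held both the lowest and the highest of these mice. Uqcrfs1 was at 0.02. Uqcrc1, a large core protein, had the narrowest range of all members over the 9 mice, 1.15-fold from lowest to highest.

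Complex IV, cytochrome c oxidase, had 7 of its 17 tested members higher and the largest values in both directions. Cox6b2 (chr7:4751792-4753094, minus strand, GRCm38) was at 3.16, 4.47 and 4.02 CPM in KO1, KO3 and KO5 and at 4.31, 4.25, 3.96 and 6.63 in WT1 to WT4. WT4 stood above the rest and the groups overlapped. Its log2 fold change was -0.31 ± 0.23 (SE; edgeR p = 0.195), and the exact permutation test gave 0.429. Cox4i2 was at the other end with 0.12 (95% interval -0.57 to 0.82), at 1.82, 4.15 and 2.96 CPM against 1.94, 2.13, 3.04 and 3.77. Both are among the scarcest members.

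The muscle isoforms did not differ between genotypes beyond their spread. Cox6a2 was at 164, 175 and 192 CPM in KO1, KO3 and KO5 and at 154, 187, 147 and 237 in WT1 to WT4, a log2 fold change of -0.04 (95% interval -0.41 to 0.32). Cox7a1 was at 17.9, 15.2 and 27.9 CPM against 16.8, 15.2, 18.4 and 24.5, a log2 fold change of 0.11 (95% interval -0.39 to 0.61). Cox8b was at 40.7, 42.5 and 59.0 CPM against 43.0, 51.5, 39.2 and 82.4, a log2 fold change of -0.20 (95% interval -0.78 to 0.38). In all 3 genes KO5 was highest of the compared Shank3Δ11(-/-) mice and WT4 highest of the Shank3(+/+) mice. The edgeR p-values were 0.795, 0.642 and 0.456.

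Of the ubiquitous isoforms, Cox8a was at 96.9, 124 and 106 CPM against 86.0, 113, 94.98 and 177, a log2 fold change of -0.12 (95% interval -0.63 to 0.39). WT4 was again highest, with the other 6 mice at or below 124. Without WT4 the log2 fold change was 0.15, in the opposite direction. Cox6a1 and Cox6b1 were each at -0.03, Cox7a2 at -0.0036 and Cox4i1 at 0.05. Cox7b, whose counterpart Cox7b2 had no counts, was at 0.02. Cox7a2l, which helps to join complexes III and IV, was at -0.03.

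Complex V, ATP synthase, had 8 of 18 members higher, from -0.08 for the ring subunit gene Atp5g2 to 0.10 for Atp5o (the identifier ENSMUSG00000022956), a stalk subunit. The beta subunit Atp5b was at 2153, 2105 and 1954 CPM in KO1, KO3 and KO5 and at 1900, 1861, 2114 and 2114 in WT1 to WT4, a log2 fold change of 0.04 (95% interval -0.21 to 0.29). Atp5a1 was at 1605, 1515 and 1437 CPM against 1469, 1474, 1565 and 1600, a log2 fold change of -0.02 (95% interval -0.26 to 0.22). For both the lowest and highest mice of the genotypes interleaved, and KO4 was at 1894 and 1368. Atp5k, a small membrane subunit, ranged widest in this complex, from 52.8 CPM in WT3 to 116 in WT4.

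Most members varied together between mice, across the genotypes. Relative to the mean of 9 mice, the median log2 level of the 83 members was 0.26 in WT4, 0.21 in KO4 and 0.12 in KO5, and -0.28 in KO2, -0.16 in WT1 and -0.13 in WT3. KO1, KO3 and WT2 lay between, at -0.06, 0.01 and 0.02. WT4 held the highest value for 47 of the 83 members and KO4 for 20, while KO2 held the lowest for 50. The corresponding medians over all genes tested lay between -0.01 and 0.01. The TMM adjustment aligns the bulk of genes between libraries and keeps them there, so they are no contrast for the members. Complex IV had the highest median of the complexes in WT4, at 0.40, and complex III the lowest there, at 0.14. The median of complex II was opposite in sign to that of all members in KO1 (0.02), KO5 (-0.04), WT2 (-0.07) and WT3 (0.02). In KO4, where 73 of the 83 members were above their own mean, Sdha was at -0.38 and Ndufs1 at -0.24.

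In most mice the deviation of a member went with its transcript length, and that of other coding genes did too, but in KO3 they had opposite signs. Members were split at the median length of their principal transcripts, 809 bases, into 42 shorter and 41 longer ones. In WT4 the median was 0.38 for the shorter and 0.15 for the longer members, and in WT3 -0.16 and -0.05. Among the 554 other protein-coding genes of at most that length the medians were 0.25 in WT4 and -0.12 in WT3, and among the 14388 longer ones -0.03 and 0.02. Spearman correlations of a member's deviation with its length were -0.64 in WT4, -0.38 in KO4, 0.61 in WT3 and 0.40 in KO2. They are across 83 genes of 1 library each, which share its depth and handling, and are given as a description. Among the 14942 other coding genes they were -0.31, -0.24, 0.22 and 0.31. In KO1, WT1, KO5 and WT2 the members gave 0.34, 0.31, -0.26 and -0.18 and the other genes 0.19, 0.24, -0.13 and -0.03, while in KO3 the members gave 0.21 and the other genes -0.14. The part of length-related library differences in the members' levels was not tested.

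**Figure D4:**
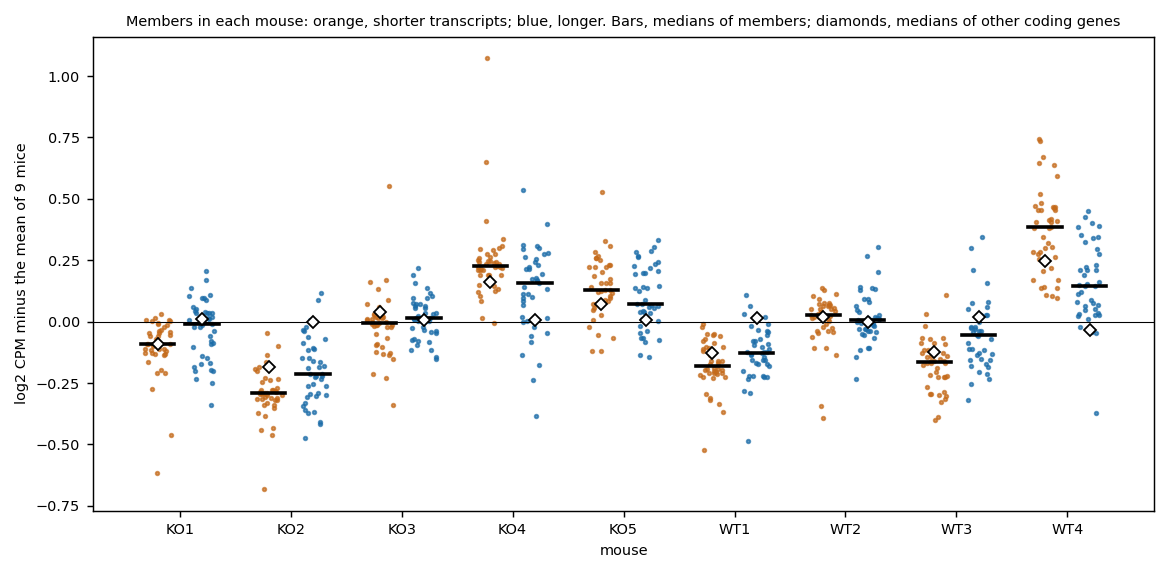
Deviation of each tested member from its 9-mouse mean in log2 CPM, by mouse, with shorter transcripts in orange, longer ones in blue, black bars for their medians and diamonds for the medians of other protein-coding genes of the same length class. WT4 has the highest medians for shorter members, 0.38, and KO2 the lowest, -0.29.

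WT4 decided the direction of many members. Without it 76 of 83 were higher in Shank3Δ11(-/-), with a median of 0.10 on the log2 scale, and without KO5 18 were higher, with a median of -0.05. In either case edgeR gave 0 members an unadjusted p below 0.05. Atp5e, a short subunit of the central stalk, shows the pattern: it was at 147, 161 and 180 CPM in KO1, KO3 and KO5 and at 139, 150, 131 and 252 in WT1 to WT4, with KO2 at 132 and KO4 at 190. Of the 42 shorter members 17 were higher, with a median of -0.02 on the log2 scale, and of the 41 longer ones 26 were higher, with a median of 0.02.

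The other genes of the pathway gave similar counts, with 1 group aside. Of 56 assembly factors, 31 were higher and 25 lower, and their median difference was 0.0014 on the log2 scale. Of 13 tested carriers and companions, such as cytochrome c and the ADP/ATP carriers, 7 were higher and 6 lower, and their median difference was 0.0022. The 13 subunits encoded by mitochondrial DNA were all higher in the mean of the 3 Shank3Δ11(-/-) mice, with a median of 0.27 and a range of 0.16 to 0.36. The edgeR p was above 0.05 for each of the 13, the smallest being 0.111, and the groups overlapped for each. mt-Co1, the catalytic subunit of complex IV, was at 11935, 12042 and 14656 CPM in KO1, KO3 and KO5 and at 8584, 14284, 9401 and 8469 in WT1 to WT4. WT1 and WT4 were the lowest of the 7 mice, and WT2 lay above KO1 and KO3. Over all mitochondrial genes the share of counts was 3.81% in WT4, the lowest of the 9 mice, and 7.88% in KO4, the highest, although both stood high for the nuclear-encoded members. These 3 lists share the mice of the comparison above.

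Markers of the tissue and of other cells were read in the same libraries. Skeletal muscle genes were high in each mouse, with a summed level of 60926 to 68630 CPM over 9 genes. The 5 heart genes summed to 706 to 1126 CPM, nearly all of it from Myl4 and Myh6, while Nppa and Myl7 were at or below 0.34 CPM, and Myh6 was lower in Shank3Δ11(-/-) with an unadjusted edgeR p of 0.0141. The 6 brown adipocyte genes summed to 23.4 to 37.8 CPM in the 5 Shank3Δ11(-/-) mice and to 40.3 to 45.6 in Shank3(+/+). These sums did not overlap, while the genotypes overlapped for each single gene. In the main comparison 5 of 5 tested genes were lower, beside 11395 of all 21809 genes tested. None of these 5 had an unadjusted edgeR p below 0.05. Ucp1, which defines brown adipocytes, was at or below 0.13 CPM, and Cidea was at 8.46 to 22.4. White adipocyte genes summed to 1127 CPM in KO5 against 186 to 403 in the other 8 mice, and 4 of the 4 tested genes were higher with an unadjusted edgeR p below 0.05. Neuron or Schwann cell genes summed to 317 CPM in KO5 against 79.2 to 156 in the others, with 4 of 4 higher and 2 of them at an unadjusted edgeR p below 0.05. Skin genes summed to 38.9 CPM in WT4 against 5.20 to 20.3 in the others. Erythroid genes summed to 3371 CPM in KO1 against 704 to 1286 in the others, and leukocyte genes to 41.3 to 64.1 CPM over the 9 mice. The part of these cells in the members' levels was not tested. Shank3 itself was at 29.3, 31.0 and 34.4 CPM in KO1, KO3 and KO5 and at 32.8, 32.9, 32.4 and 38.5 in Shank3(+/+), and counts over the whole gene do not check the loss of 1 exon.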

How the data were processed

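For 9 libraries, HISAT2 alignment to mm10 (GRCm38) and counting with featureCounts were done by the authors, who used pairs mapped concordantly. The counts, as deposited, are whole reads per Ensembl gene without normalization, and their annotation release and strandedness are not given in the sources used. Symbols, positions and exon lengths came from GENCODE M21 and promoters from RefSeq (GRCm38.p6). The members and lists were chosen with earlier results of these data known. Genes were filtered with filterByExpr (minimum count 10, minimum total count 15) and tested with edgeR 4.0.16 in R 4.3.3 (TMM, robust quasi-likelihood test, Benjamini-Hochberg adjustment over all genes tested), which was tested on simulated data. Standard errors and intervals are those of the fit. For named members a 2-sided exact permutation test compared mean log2 CPM, with every split of the mice enumerated. Named members were all Cox4, Cox6a, Cox6b, Cox7a, Cox7b and Cox8 isoforms, the highest, lowest and most changed members of each complex, members with p below 0.05 or without overlap, and the catalytic or redox subunits, 37 in all. Others named for illustration were chosen after their values were seen. Alternatives were all 9 mice, other filters and normalizations, DESeq2 1.42.0, limma-voom (limma 3.58.1), the replicate number as a block, a Y-linked covariate, each mouse left out and other pseudocounts; the length of the principal transcript, the length split and the block and covariate over 9 mice were added after seeing the data. Counts of 3 give the limit for a gene without counts. Results for some single genes are withheld from the text and the labelled figures. Figures were drawn with matplotlib.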

Additional observations from a re-analysis of the deposited data

Results flagged for a closer look

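The named members and the isoform ratios were searched for a mouse whose distance to its nearest neighbour took more of the group's range than Dixon's 95% critical value, 0.829 for the 4 Shank3(+/+) and 0.71 for the 5 Shank3Δ11(-/-) mice, where chance alone gives about 1 in 20. This was so for 3 of 39 values in Shank3(+/+) and 0 of 39 in Shank3Δ11(-/-), and the 3 compared Shank3Δ11(-/-) mice were too few to be searched on their own. Ndufv2 was at 213 CPM in WT2 and at 196 to 199 in the other Shank3(+/+) mice, a narrow group in which 0.83 of the range was this gap. Cox6b2 was at 6.63 CPM in WT4 and at 3.96 to 4.31 in the other 3, with a gap of 0.87 of the range. The log2 ratio of Cox6a2 to Cox6a1 was 1.31 in WT2 and 1.15 to 1.18 in the other 3, with a gap of 0.84 of the range. No cause was tested for any of these.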

How the results depend on the processing

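No alternative run called a member, and members with an unadjusted p below 0.05 appeared in the replicate block over 7 mice alone, where Uqcr10 and Cox8a made 2, each at a log2 fold change of 0.27 with an edgeR adjusted p of 1.00. That fit gave 844 of 21809 genes (3.87%) such a p and called 9. Among the 7 mice only KO1 with WT1 and KO3 with WT3 shared a number, so its genotype difference rested on these pairs alone. KO5, WT2 and WT4 stood alone under their numbers and added nothing to it. In that replicate block 76 members were higher and 15 of 35 named members turned sign, Cox8a among them, and over 9 mice the block gave 24 higher. Same-numbered mice correlated at 0.37 (KO1 and WT1), 0.052 (KO2 and WT2), 0.36 (KO3 and WT3) and 0.10 (KO4 and WT4). The pair of KO2, a mouse outside the main comparison, was under the 0.1 asked of every pair. The numbers were therefore not taken to pair the mice, although both pairs within the 7 compared mice were above it. KO1, KO3 and KO4 correlated best with their own number and KO2 with WT1, a hint from the data and not the design. The count of 43 higher members became 27 with the Y-linked covariate, and 18 to 76 when each mouse was left out (KO5 lowest and WT4 highest, with 26 without WT1); the median log2 fold change ran from -0.05 to 0.10. Other filters, normalizations and tools gave 43 to 48 higher. The share of complex V was 43.8% without length scaling and 37.1% with the principal transcript. With that length the mean log2 ratio was 0.91 for the Cox6a pair and -7.18 for the Cox4 pair, and with a pseudocount of 2 the latter was -5.80. Without each mouse in turn the Cox6a ratio ran from 1.19 to 1.23. The causes of these shifts were not tested. The intervals limit what these 7 mice can show to changes of about 1.5-fold for most members.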
